A study of Mus musculus with 4 samples.

Results

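The transcripts described here are those of 8 enzymes that build haem: Alas1, Alas2, Alad, Uros, Urod, Cpox, Ppox and Fech. They were taken by gene symbol from tables of 49997 genes, and all 8 were present and passed the filter on low counts. Of these, 5 act inside mitochondria (Alas1, Alas2, Cpox, Ppox, Fech) and 3 act in the cytosol (Alad, Uros, Urod).

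The samples were explants of the mouse aorta-gonad-mesonephros region (AGM), the part of the embryo in which the earliest blood stem cells form. All came from C57BL/6J embryos, of embryonic stage E10.5 by the series design and of E10.5 and E11.5 by the growth protocol, and were kept for 48 hours at the gas-liquid interface in MyeloCult with hydrocortisone. The untreated group held 2 libraries and the CCCP group held 2, the latter with 5 µM CCCP for 48 hours, a protonophore that lets protons pass the inner mitochondrial membrane and so dissipates its potential. Poly(A) RNA was sequenced, to between 37360968 and 48827826 counted reads per library. The cell type is labelled as stem cells, whereas the extraction protocol names whole explants. Summed over 9 mesenchymal markers the level was 3254 to 5594 CPM (counts scaled to library size and composition), against 180 to 238 CPM over 12 blood stem and progenitor markers, so the libraries held much RNA of other cells. No label says whether same-group libraries came from separate embryos, and p-values measure only the spread between these libraries.

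Haem synthesis starts and ends in mitochondria. Aminolaevulinate synthase joins glycine and succinyl-CoA in the matrix, the cytosolic enzymes turn its product into a ring, and Cpox, Ppox and Fech complete the porphyrin and insert iron back inside the organelle. The enzymes of the mitochondrial steps are made in the cytosol and imported, and import into the matrix draws on the membrane potential. Blood islands and circulating red cells of the embryo make haem for globin, while every cell needs a small amount for cytochromes.

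The first step has separate genes for these demands. Alas1 is the general form, repressed by haem itself, and Alas2 is the erythroid form, whose mRNA carries an iron-responsive element, a hairpin in the 5′ leader that iron regulatory proteins bind when iron is scarce. The element of Alas2 is shown beside those of the ferritin genes Fth1 and Ftl1 because the abundance of all 3 transcripts is compared further on. They were found as the letters CAGTGN with a C at 6 bases before them, within the first 100 bases of GENCODE M21 transcripts (mm10 coordinates, sense strand only), and capitals mark the CAGTGN loop.
Alas2, chrX:150547459-150547484, + strand: tggttcgtcctCAGTGCagggcaaca
Fth1, chr19:9982733-9982758, + strand: tcctgcttcaaCAGTGCttgaacgga
Ftl1, chr7:45459781-45459806, - strand: tcttgcttcaaCAGTGTttgaacgga
These letters occurred in that window in 3.76% of 58737 protein-coding transcripts, also in transcripts of Fech and Uros and at a further position in Alas2. Counts of mRNA do not show translation, the step this element is known to control.

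The promoters of the enzymes also differ in their letters. RefSeq windows from 250 bases before to 50 bases after a start site (build GRCm38.p6) were matched for 7 of the 8 members, all but Fech. The core GATAA, which GATA factors recognise, was searched on both strands and was present in 25.4% of 32851 windows of all genes. The letters GCGC and TGCGC with 1 base of any kind between them, a core recognised by the general factor NRF1, were present in 4.6% of them. The windows of Alas2, Cpox and Alas1 are shown because Alas1 was steady among the libraries while the other 2 were not. Capitals mark the core, which reads TTATC where it lies on the other strand.
Alas2, chrX:150547319-150547348, + strand: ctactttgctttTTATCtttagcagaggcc
Cpox, first match, chr16:58670110-58670139, + strand: aaagcgcctatcTTATCagtccaagcacct
Cpox, second match, chr16:58670200-58670229, + strand: cagggtgcagtcTTATCtgctctttccggg
Alas1, first match, chr9:106247935-106247964, - strand: gcttcggcgcGCGCGTGCGCgcggcaggcc
Alas1, second match, chr9:106247906-106247935, - strand: cgcacccaagGCGCATGCGCggcggtcact
Uros held GATAA in 1 of its windows and the NRF1-type core in another. Neither core was found in the windows of Alad, Urod or Ppox, which says only that these letters are not there. Of these, Ppox was also steady, at 35.6 to 39.0 CPM, whereas Alad ranged from 48.8 to 85.8 CPM. A link between the cores and the levels was not tested.

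Between CCCP and untreated explants, 5 of the 8 enzymes (Alas1, Alas2, Uros, Urod and Fech) were higher in both CCCP libraries than in both untreated libraries, and none was lower in both. The same held, upward, for 24.0% of the 19837 genes tested. No member passed the test over all genes: 0 of 8 and 0 of 19837 genes (0.0%) passed at 0.05 after Benjamini-Hochberg adjustment of edgeR's quasi-likelihood p-values. DESeq2 also called 0 of the 8, against 594 of all genes (2.99%). At an unadjusted p under 0.05 there were 2 members, Alas2 and Urod, both higher in CCCP, where 5.45% of all genes were. Calls depended on the fit. Without the filter on low counts Alas2 was called, as were 3.43% of all genes. A fit with replicate number as a block called Alas2 and Urod, where 10.7% of all genes were called and 3.8% were called higher. That fit with the trend on exon length also removed called Alas2, with 6.62% of all genes. Leaving out 1 library called no member, and of all genes 0.13% without CCCP replicate 1, 0.162% without CCCP replicate 2, 0.0491% without untreated replicate 1 and 0.214% without untreated replicate 2. In the reported fit the median log2 fold change was 0.26 over the 8 members and -0.01 over all genes tested. That of the members was 0.14 without CCCP replicate 2 and 0.47 without CCCP replicate 1. In RNA of whole explants, fewer cells of a type and less RNA per cell cannot be told apart.

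**Figure D1:**
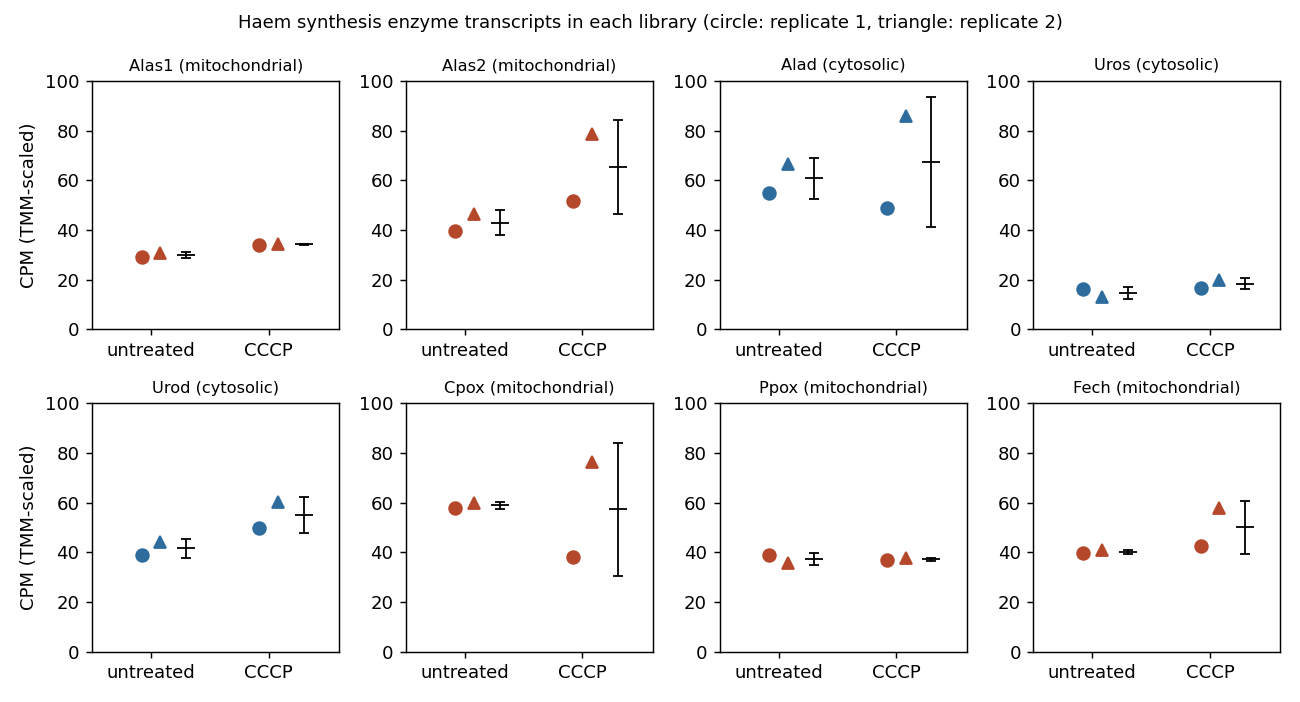
Level of each of the 8 transcripts in CPM (vertical axis, from 0) in the 2 untreated and 2 CCCP libraries, with the mean and SD of each group in black (n = 2). Alas1 and Ppox lie close together in all libraries, whereas Alas2, Alad and Cpox reach 78.8, 85.8 and 76.3 CPM in replicate 2 of the CCCP group.

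Alas2 (chromosome X, 150547417 to 150570622, coordinates of mm10 here and below) had the largest difference of the 8. It measured 39.4 and 46.5 CPM in untreated explants and 51.9 and 78.8 CPM with CCCP, on 1740 to 2860 counts. The groups did not overlap, yet the CCCP libraries differed from each other by more than the group means did. Its mean went from 43.0 ± 5.03 to 65.4 ± 19.1 CPM (SD, n = 2), a 1.52-fold difference. The log2 fold change of 0.60 had a standard error of 0.216, a 95% interval of 0.08 to 1.13 and, by edgeR, an adjusted p-value of 0.304. Without CCCP replicate 2 it was 0.28, and without CCCP replicate 1 it was 0.88. Of its 2018 exon bases, 348 (17.2%) are shared with exons on the other strand, 319 of Apex2 and 29 of Mir3620, and counting did not use strand. Apex2 measured 18.4 and 16.1 CPM in the untreated and 16.01 and 14.0 CPM with CCCP, the opposite order to Alas2.

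Alas1 (chromosome 9, 106233455 to 106247954) was much steadier. It measured 29.0 and 30.7 CPM in untreated explants and 34.1 and 34.4 CPM with CCCP. The groups lay apart by a small margin, at 29.9 ± 1.22 against 34.3 ± 0.167 CPM (SD, n = 2). That was a log2 fold change of 0.20 (95% interval -0.11 to 0.50, edgeR adjusted p-value 0.494). It was between 0.17 and 0.27 whichever library was left out.

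Per kilobase of exon, which allows levels of different genes to be set side by side, Alas2 was 2.19 and 2.45 times as abundant as Alas1 in the untreated libraries. In the CCCP libraries the ratio was 2.45 and 3.70. Alas2 thus made up 68.7% and 71.0% of the summed synthase level in untreated explants and 71.0% and 78.7% with CCCP. Untreated replicate 2 and CCCP replicate 1 had the same ratio. Over the unshared bases of Alas2 alone the ratios were 2.65 and 2.96 in untreated explants and 2.96 and 4.48 with CCCP. The log2 ratio was 0.38 higher in CCCP on average, and 0.08 higher without CCCP replicate 2. The difference was not tested: an exact permutation test of 2 against 2 libraries has a smallest two-sided p of 0.333.

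Among the cytosolic enzymes, Urod lay apart most clearly. Urod (chromosome 4, 116989965 to 116994436) encodes uroporphyrinogen decarboxylase, which trims the side chains of the ring. It measured 39.0 and 44.2 CPM in untreated explants and 49.9 and 60.2 CPM with CCCP, with no overlap. It differed 1.32-fold, a log2 fold change of 0.40 (standard error 0.145, 95% interval 0.05 to 0.76, edgeR adjusted p-value 0.304). It was lowest without CCCP replicate 2, at 0.27, and highest without CCCP replicate 1, at 0.54. With the trend on exon length removed it was 0.25, and the exons of Urod, 1512 bases, are the shortest of the 8.

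Uros (chromosome 7, 133686142 to 133710467) encodes uroporphyrinogen III synthase, which closes the ring. It measured 16.3 and 13.1 CPM in untreated explants and 16.7 and 19.8 CPM with CCCP, so the groups lay apart by a narrow margin. Its log2 fold change was 0.31 (standard error 0.196, edgeR adjusted p-value 0.490), and was 0.19 without untreated replicate 2, 0.20 without CCCP replicate 2 and 0.49 without untreated replicate 1. Alad (chromosome 4, 62505984 to 62520063) encodes aminolaevulinate dehydratase, which makes the pyrrole building block. It measured 54.9 and 66.7 CPM in untreated explants and 48.8 and 85.8 CPM with CCCP. The CCCP libraries thus bracketed the untreated ones. Its log2 fold change of 0.15 (standard error 0.268, 95% interval -0.51 to 0.80, edgeR adjusted p-value 0.824) became -0.31 without CCCP replicate 2 and 0.50 without CCCP replicate 1.

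The last 3 enzymes act in mitochondria. Cpox (chromosome 16, 58670208 to 58680391), coproporphyrinogen oxidase of the intermembrane space, measured 58.0 and 60.1 CPM in untreated explants and 38.2 and 76.3 CPM with CCCP. The untreated libraries were close and the CCCP libraries lay on either side of them. Its log2 fold change of -0.04 (standard error 0.303, 95% interval -0.78 to 0.69) was -0.62 without CCCP replicate 2 and 0.38 without CCCP replicate 1. Ppox (chromosome 1, 171276991 to 171281193), protoporphyrinogen oxidase of the inner membrane, measured 39.0 and 35.6 CPM in untreated explants and 36.8 and 37.7 CPM with CCCP. Its groups overlapped, and the 95% interval of its log2 fold change was -0.31 to 0.30.

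Fech (chromosome 18, 64456542 to 64489098), ferrochelatase, inserts the iron and itself carries an iron-sulfur cluster. It measured 39.7 and 40.9 CPM in untreated explants and 42.6 and 57.7 CPM with CCCP. The groups did not overlap, but CCCP replicate 1 was nearer to the untreated libraries than to CCCP replicate 2. The log2 fold change of 0.32 (standard error 0.168, 95% interval -0.10 to 0.73, edgeR adjusted p-value 0.429) was 0.09 without CCCP replicate 2 and 0.52 without CCCP replicate 1.

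**Figure D2:**
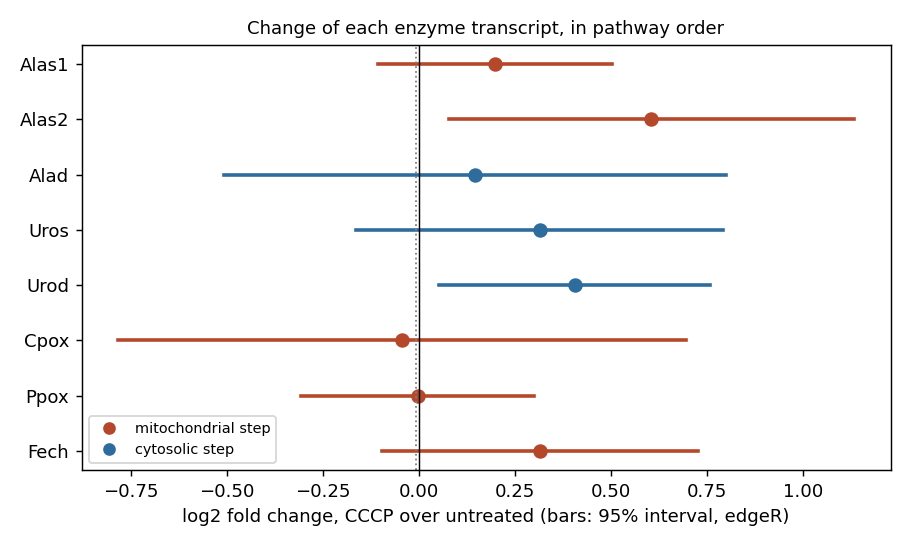
Log2 fold change of each transcript, CCCP over untreated (horizontal axis), in pathway order, with its 95% interval from edgeR; the dotted line is the median of all genes, -0.01. The intervals of Alas2 (0.08 to 1.13) and Urod (0.05 to 0.76) lie above 0, unadjusted for the number of genes, and the other 6 include 0.

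The mitochondrial and cytosolic steps were set against each other. The median log2 fold change was 0.20 over the 5 mitochondrial steps, which ranged from -0.04 (Cpox) to 0.60 (Alas2), and 0.31 over the 3 cytosolic steps, which ranged from 0.15 (Alad) to 0.40 (Urod). The ranges overlapped, and the difference of the medians, mitochondrial minus cytosolic, was -0.12. In each library the mean log2 CPM of the mitochondrial steps exceeded that of the cytosolic steps. The excess was 0.29 and 0.30 in untreated and 0.23 and 0.20 in CCCP libraries. CPM does not allow for exon length, so this excess compares libraries and does not give the relative level of the sets. Groups lay apart upward for 3 of the 5 mitochondrial and 2 of the 3 cytosolic members, and for 24.0% of all genes tested.

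Levels per kilobase of exon spanned nearly an order of magnitude. In untreated explants the order was Urod (27.5 CPM per kilobase), Alas2 (21.3), Ppox (19.0), Cpox (18.5), Fech (13.7), Alad (12.9), Alas1 (9.16) and Uros (3.64). The libraries of neighbours overlapped for Alas2 and Ppox, for Ppox and Cpox, and for Fech and Alad, so these pairs have no clear order. The order of the means was the same with CCCP, from Urod at 36.4 to Uros at 4.53 CPM per kilobase, but there, of neighbours, only Alas2 and Ppox, and Alas1 and Uros, lay apart. The exon lengths used are unions over all annotated transcripts, 4731 bases for Alad and 4033 for Uros, so the level per kilobase of a gene with long rare exons is understated. That of Alas2 is understated too, since reads in its shared bases were not counted. Over its 1670 unshared bases it was 25.7 CPM per kilobase in untreated explants and 39.1 with CCCP. On that measure it overlapped Urod in both groups, with the higher mean under CCCP, and lay above Ppox in both.

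The libraries of the CCCP group differed from each other in most of these transcripts. All 8 were higher in CCCP replicate 2 than in CCCP replicate 1, where 10329 of the 19837 genes tested were. The log2 difference was 0.997 for Cpox, 0.81 for Alad, 0.60 for Alas2 and 0.44 for Fech. It was 0.27 for Urod, 0.25 for Uros, 0.04 for Ppox and 0.01 for Alas1. Between the untreated libraries the 8 differences ran from -0.32 (Uros) to 0.28 (Alad).

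Erythroid genes outside the enzyme set differed between the same libraries. Gata1, the leading erythroid transcription factor, measured 3.26 and 4.52 CPM in untreated explants and 1.73 and 6.89 CPM with CCCP. Klf1, another such factor, measured 4.16 and 4.15 CPM and then 2.88 and 5.35 CPM.

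Of the 17 erythroid markers tested, 16 were higher in CCCP replicate 2 than in CCCP replicate 1, with a median log2 difference of 0.78, against 0.01 over all genes. Their summed level was 667 to 727 CPM in the untreated and 660 to 843 CPM with CCCP, and none was at 0 in any library. The summed level of the 8 globin genes was 2612 and 3227 CPM in untreated explants and 2960 and 4946 CPM with CCCP. The part of erythroid content in the differences between groups was not tested. Measured against Gata1, Alas2 stood at 12.1 and 10.3 times its CPM in untreated libraries, at 29.96 times in CCCP replicate 1 and at 11.4 times in CCCP replicate 2. Cpox stood at 17.8 and 13.3 times in untreated libraries, and at 22.1 and 11.1 times with CCCP. Both ratios were highest in CCCP replicate 1, where Gata1 was lowest with 84 counts. In CPM, Alas2 was higher in that library than in either untreated library, while Cpox was lower.

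**Figure D3:**
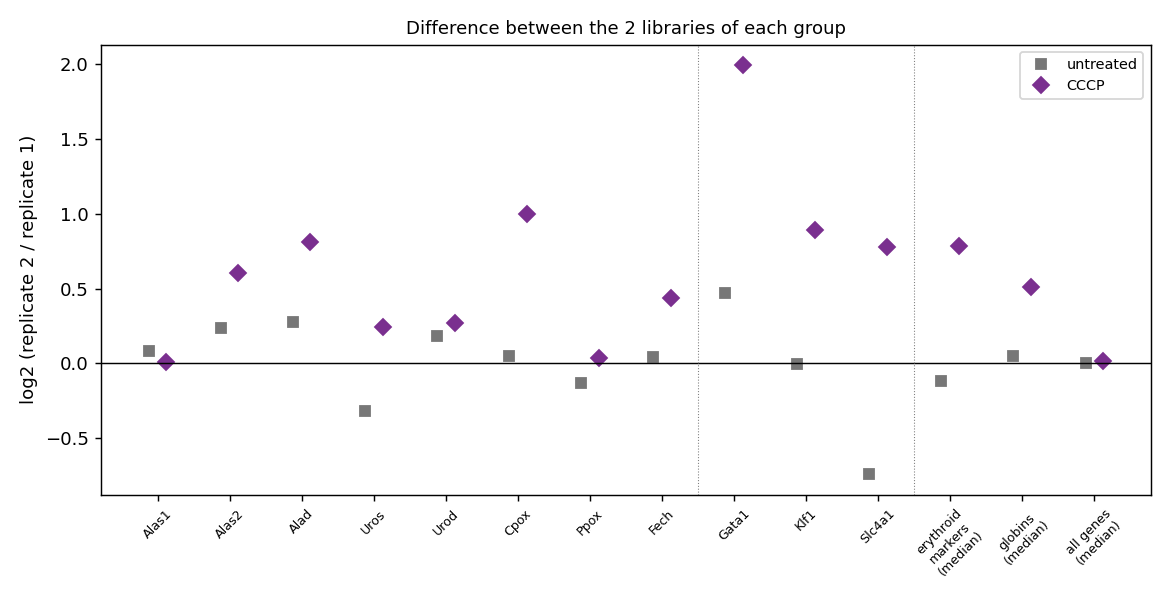
Log2 of replicate 2 over replicate 1 (vertical axis) in the untreated (squares) and CCCP (diamonds) groups, for the 8 enzymes, for 3 erythroid genes, and as medians of gene lists. Cpox (0.997) and Alad (0.81) differ between the CCCP libraries about as much as the median erythroid marker (0.78), whereas Alas1 (0.01) and Ppox (0.04) lie near 0.

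Hepatocyte-type transcripts, a further source of haem enzymes in the embryo, were far apart between the groups. Summed over 14 hepatic markers the level was 1595 and 932 CPM in untreated explants and 8.16 and 79.5 CPM with CCCP. Of the 14, 13 were lower in both CCCP libraries, as were 24.8% of all genes tested. Fga and Ahsg were at 0 in CCCP replicate 1. Alb measured 376 and 151 CPM in untreated explants and 0.165 and 11.1 CPM with CCCP. None of the 8 enzymes was lower in both CCCP libraries. Hnf4a, a hepatic regulator, stood at 8.97 and 8.32 CPM and then 2.45 and 1.82 CPM. The part of this difference in the enzyme values was not tested.

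Other genes that serve the pathway were read from lists. Of 17 genes for transport and partner proteins, 11 had a log2 fold change above 0, the median was 0.16, and 5 lay apart upward and 3 downward (background 24.0% and 24.8%). The median was 0.07 with the trend on exon length removed and 0.08 without CCCP replicate 2. Slc25a38, the carrier that brings glycine into mitochondria for the first step, measured 24.1 and 22.3 CPM in untreated explants and 31.2 and 31.5 CPM with CCCP. Its log2 fold change was 0.44 (standard error 0.136, edgeR adjusted p-value 0.271). Slc25a37, which imports iron into erythroid mitochondria, measured 59.8 and 55.9 CPM and then 35.0 and 59.5 CPM, with overlap.

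Genes for iron-sulfur cluster assembly, on which Fech depends, had 14 of 15 log2 fold changes above 0, a median of 0.27, and 9 that lay apart upward and none downward. Of all genes tested, 49.2% were above 0, 24.0% lay apart upward and 24.8% downward. The median of the list was 0.16 with the trend on exon length removed, 0.16 without untreated replicate 1 and 0.45 without untreated replicate 2. Glrx5, a glutaredoxin of this pathway that erythroid haem synthesis needs, measured 28.8 and 39.0 CPM in untreated explants and 41.8 and 53.7 CPM with CCCP. Its log2 fold change was 0.49 and its edgeR adjusted p-value 0.338. Iscu, the scaffold protein, measured 16.7 and 22.5 CPM and then 25.98 and 26.4 CPM, with a log2 fold change of 0.42 (edgeR adjusted p-value 0.363). No gene of this list passed.

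Genes for the use, breakdown and export of haem were mixed, with 8 of 13 above 0 and a median of 0.06, which was -0.06 without CCCP replicate 2, -0.05 without untreated replicate 1 and 0.21 without untreated replicate 2. Hmox1, the haem oxygenase that is induced by haem and by stress, measured 59.2 and 56.5 CPM in untreated explants and 79.7 and 60.5 CPM with CCCP. The groups lay apart, the CCCP libraries were unequal, and the edgeR adjusted p-value was 0.455. Slc48a1, a haem transporter of endosomes and lysosomes, measured 27.8 and 24.8 CPM and then 33.3 and 33.5 CPM. Bach1, a repressor that haem releases from DNA, measured 215 and 191 CPM and then 157 and 182 CPM. Hpx, a plasma protein made in liver that binds free haem, measured 4.34 and 3.21 CPM and then 0.330 and 0.634 CPM, beside the hepatic markers above.

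Iron genes went in different directions. The ferritin transcripts, whose elements are printed above with that of Alas2, were higher in both CCCP libraries. Fth1 measured 466 and 459 CPM in untreated explants and 584 and 637 CPM with CCCP, with a log2 fold change of 0.40 (edgeR adjusted p-value 0.277). Ftl1 measured 1140 and 1373 CPM and then 1610 and 2077 CPM, with a log2 fold change of 0.55 (edgeR adjusted p-value 0.299). Both ferritin genes have processed pseudogenes, and reads shared with a copy were not counted, so their levels are uncertain.

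Tfrc, the transferrin receptor that brings iron into erythroid cells, lay the other way, at 109 and 142 CPM in untreated explants and 66.6 and 106 CPM with CCCP. Its groups were separated by a narrow margin, and its edgeR adjusted p-value was 0.373. Ireb2, an iron regulatory protein that binds the printed elements, measured 230 and 217 CPM and then 150 and 171 CPM, with a log2 fold change of -0.48 (edgeR adjusted p-value 0.228). Aco1, the other iron regulatory protein, lay apart in the opposite direction, at 95.05 and 94.85 CPM and then 109 and 112 CPM. Its log2 fold change was 0.21 (edgeR adjusted p-value 0.405). Trf, the plasma iron carrier and a product of hepatocytes, measured 260 and 132 CPM and then 47.1 and 38.3 CPM. Of the 14 iron genes, 4 lay apart upward and 6 downward (24.0% and 24.8% of all genes), and none passed. Their median was -0.07, or -0.13 with scaling by total counts alone and -0.16 without CCCP replicate 2.

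Over 14 regulators of the pathway the median log2 fold change was 0.04, with 4 apart in each direction (24.0% and 24.8% of all genes). The median was -0.27 without CCCP replicate 2 and 0.20 without CCCP replicate 1, and -0.02 with scaling by total counts alone. Epor, the erythropoietin receptor, measured 5.35 and 4.87 CPM in untreated explants and 2.53 and 4.30 CPM with CCCP. Ppargc1a, a coactivator known to raise Alas1 in liver, measured 6.83 and 5.99 CPM and then 3.94 and 5.02 CPM. Alas1 itself had a log2 fold change of 0.20, with a 95% interval of -0.11 to 0.50 that included 0. A link between these transcripts was not tested. Lonp1, the matrix protease that degrades the Alas1 protein when haem is plentiful, measured 125 and 146 CPM and then 158 and 158 CPM. The edgeR adjusted p-values of Epor, Ppargc1a and Lonp1 were 0.454, 0.399 and 0.444.

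Globin genes, the main use of the haem that Alas2 starts, had a median log2 difference of 0.49 over 7 genes tested. That median was 0.24 with the trend on exon length removed, 0.21 without untreated replicate 1 and 0.26 without CCCP replicate 2. Of the 7 globins, 3 lay apart upward and none downward (24.0% and 24.8% of all genes). Those 3 were the alpha-type genes Hba-x, Hba-a1 and Hba-a2, and none of the beta-type globins tested lay apart. Multi-mapping reads were not counted, so the levels of near-identical copies such as Hba-a1 and Hba-a2, and globin sums, are uncertain. Hba-x, an embryonic alpha-type globin, measured 371 and 384 CPM in untreated explants and 448 and 716 CPM with CCCP. Its log2 fold change of 0.63, beside 0.60 for Alas2, was the highest of the globins, and the lowest was -0.26. Erythroid markers other than globins had a median of 0.05 over 17 genes. It was -0.33 without CCCP replicate 2, 0.38 without CCCP replicate 1 and -0.01 with scaling by total counts alone. Only 1 of these markers, Bpgm, lay apart upward and none downward, against 24.0% and 24.8% of all genes. Slc4a1, the anion exchanger of red cells, measured 71.9 and 43.1 CPM and then 62.5 and 107 CPM, with overlap.

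**Figure D4:**
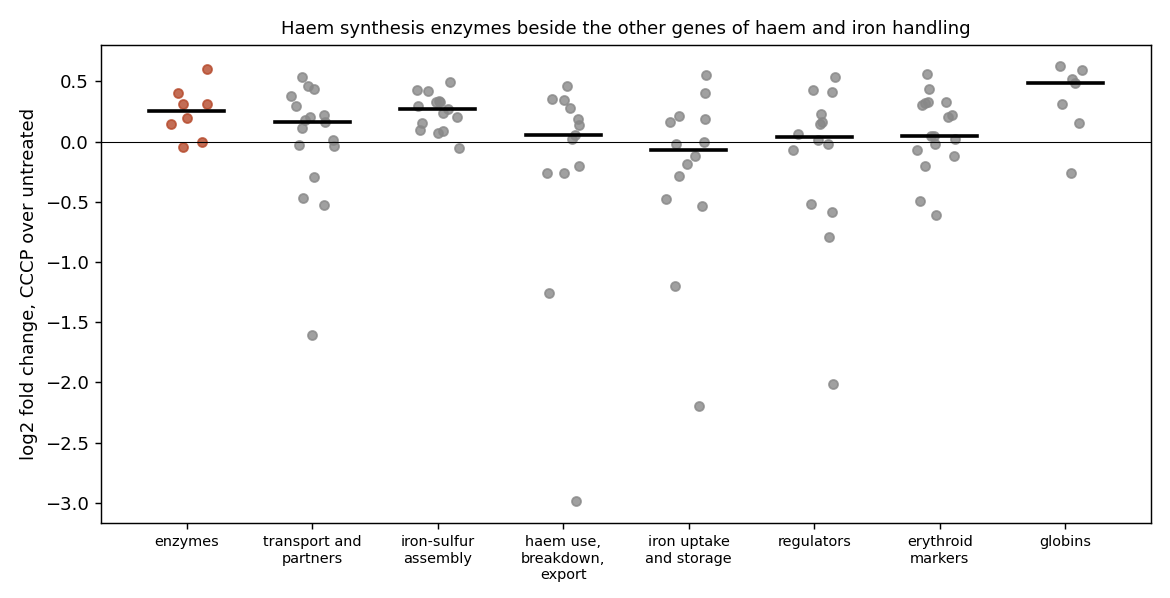
Log2 fold change, CCCP over untreated (vertical axis), of each tested gene in the enzyme set and in 7 lists, with the median of each list as a black bar; points are spread sideways for clarity. The enzymes (median 0.26) sit beside the iron-sulfur assembly genes (0.27), below the globins (0.49) and above the erythroid markers (0.05), and the iron genes scatter widely around -0.07.

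The pattern of each enzyme over the 4 libraries was compared with that of 10505 other genes of at least 10 CPM, as the root mean square difference of centred log2 CPM. For Alas2 the nearest were Cldn4 (0.045), Trim29 (0.047), Sfn (0.048) and Bri3 (0.061), none of which is on the erythroid, globin or regulator lists. For Cpox the nearest were Tdg-ps2 (0.078), Ctla2a (0.082) and Tal1 (0.12), a blood transcription factor. For Urod they were Myl12a, Stard10 and Cenpx, at 0.0087 to 0.014, for Alad they were Mt2, Grhl3 and Rassf4, at 0.030 to 0.056, and for Fech they were Cthrc1, Lin37 and Creg1, at 0.0087 to 0.019. Those of Alas1 were Aars2, Fnta and Pigv (0.0055 to 0.0079), those of Ppox Cipc, Foxk1 and Ikbkb (0.0032 to 0.0088), and those of Uros Uap1, Tpm2 and Krt5 (0.025 to 0.036). With 4 libraries, which share their depth and composition, such likeness is a description only.

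Within the set, the most alike were Urod and Fech, at 0.092. Alas1 and Ppox followed at 0.13, Alas1 and Urod at 0.14, and Alas2 with Urod, Alad with Cpox and Uros with Fech at 0.15. The least alike, at 0.38, were Cpox with Alas1, Cpox with Alas2, and Alas2 with Ppox.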

How the data were processed

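RNA of 4 explant libraries was analysed, grouped by sample title. The count column of untreated replicate 1 is headed UM1, which is not its title (UN_rep1). It was assigned by GEO's record of which sample the table belongs to. The authors deposited raw counts of reads per gene, made with featureCounts 2.0.3 on mm10 RefSeq exons, per the file headers. No strand option was set there, though the labels describe a directional kit, and reads of a pair were counted singly. Multi-mapping and shared reads were not counted. HISAT2 and SAMtools are named in the submitters' processing notes. Counts were tested with edgeR 4.0.16 in R 4.3.3 (quasi-likelihood, TMM scaling, filterByExpr with minimum count 10, group as the sole term, two-sided, Benjamini-Hochberg over 19837 genes, threshold 0.05). The script was tested on simulated data. Standard errors are the log2 fold change over the square root of F, and 95% intervals use the fitted degrees of freedom. DESeq2 1.42.0 was an alternative, beside other scalings, no filter, removal of the exon length trend, a replicate block and leaving out each library. CPM are TMM-scaled. Log2 CPM used a prior count of 2. A floor of 3 counts is 0.0599 to 0.0827 CPM, for counting error only. The lowest member count was 488. Members and lists were chosen with earlier results of these data known. All members were named, and in each list the 4 smallest p-values and a fixed set. Aco1 was named in addition, beside Ireb2. A few genes that this rule would name are not reported here. Patterns were compared among genes of at least 10 CPM without predicted genes.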

Additional observations from a re-analysis of the deposited data

How the results depend on the processing

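The number of genes called was 0 in the reported fit and under both other scalings, with the exon length trend removed, and without globin and mitochondrial genome genes. It was 1107 without the filter beyond 1 count, 594 in DESeq2, 2118 with the replicate block, 1313 with the replicate block and the exon length trend removed, and 10 to 46 when 1 library was left out. The cause was not tested. Members called were 1 without the filter (Alas2), 2 with the replicate block (Alas2 and Urod, where 10.7% of all genes were called), 1 with that block after length correction (Alas2), and 0 to 0 with 1 library left out. Alas2 then had log2 fold changes of 0.62, 0.58 and 0.46 (edgeR adjusted p-values 0.00651, 0.0108 and 0.042), and Urod 0.40 with the block (0.0381). No label says what a replicate number marks, and 2 numbers are too few to establish a pairing (correlation of same-numbered deviations 0.36). Ppox, reported at -0.003, was 0.002 with DESeq2 size factors, 0.010 without the filter and 0.002 in DESeq2. With 1 library left out, Ppox ran from -0.036 to 0.074, Cpox from -0.62 to 0.38 and Alad from -0.31 to 0.50, so all 3 took both signs. The other 5 members kept theirs, from 0.09 (Fech) to 0.88 (Alas2). The mitochondrial minus cytosolic difference was -0.089 with the length trend removed, -0.084 with the block as well, and -0.16 to -0.05 with 1 library left out. The Alas2 to Alas1 log2 ratio difference ran from 0.08 to 0.67 with 1 library left out. With 3 libraries, the lone library of a group is assumed to vary like the others.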
